A study of Mus musculus with 48 samples.

Results

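Kidneys of young NZB/W F1 mice taken at lights off, Zeitgeber time 12 (ZT12), were compared with kidneys taken at lights on (ZT0). The comparison held 10 of the 48 arrays of the series, chosen by their source names alone: the 6 labelled young at ZT12 and the 4 labelled young at ZT0. NZB/W F1 mice, the cross of the NZB and NZW strains, develop lupus nephritis with age, and both groups here were 12-week-old untreated females, housed in 12 h of light and 12 h of dark, whose kidneys were perfused and profiled whole before disease. The ZT0 arrays (replicates 1 to 4) all carried the title code CR6. The ZT12 arrays came in 2 sets by title, 3 titled CR3 (replicates 1 to 3) and 3 titled ZT_12 (replicates 4 to 6), and both sets were compared with the same 4 ZT0 arrays. No title code held both times, so code and time cannot be told apart. The study counts its kidneys as separate mice and lists the ZT12 arrays in separate sets. The labels, however, name neither the mouse of an array nor the set of a title code. The p-values therefore measure spread between arrays of the same time, pooled over all 26 young arrays. In whole kidney, fewer cells of a type and less RNA per cell cannot be told apart.

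Cells keep daily time through a feedback loop. The activators BMAL1 (gene Arntl), CLOCK and NPAS2 bind E-boxes in DNA and switch on the Per, Cry and Rev-erb (Nr1d1, Nr1d2) genes, whose proteins in turn shut down the activators or their genes. The loop also drives the transcription factors DBP, TEF and HLF, which act through D-boxes, and through these it reaches sodium handling, transport and metabolism in the kidney. In nocturnal mice, lights off opens the active and feeding phase, and blood corticosterone is near its daily peak.

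Array quality was even, with median signals between 104.7 and 111.3 and between 13107 and 13735 detected probes. Replicate kidneys correlated at r = 0.992 among the ZT0 arrays, 0.993 to 0.995 in the CR3 set and 0.988 to 0.994 in the ZT_12 set, against 0.982 to 0.991 between the sets. Replicates 5 and 6, both of the ZT_12 set, stood apart. On the first principal component of the 26 young arrays (21.6% of the variance) they lay at 27.0 and 24.9, and the other young arrays lay between -16.0 and 13.3. Counts without these 2 arrays are given where they differ by over 1.5 times. Kidney markers were present: 12 of 15 proximal tubule, 9 of 10 thick limb and distal tubule and 10 of 12 collecting duct markers were detected on at least 3 of the 10 arrays.

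A total of 9808 genes was tested, of which 1556 (15.9%) differed between ZT12 and ZT0 at an adjusted p under 0.05 (limma). Of these, 878 (8.95% of genes tested) were higher at ZT12 and 678 (6.91%) were lower, so 56.4% of the calls were upward. Median scaling, an alternative on the log2 of the deposited signals without background correction or quantile normalization, turned that split to 76.7% upward. Most differences were small. At least 2-fold differences were seen for 24 genes upward and 18 downward, and the median size among called genes was 0.40 on the log2 scale, against 0.14 over all genes. Arrays did not overlap between the times for 877 of the called genes, 496 higher and 381 lower, and over all genes tested 10.7% did not overlap (5.98% higher and 4.73% lower at ZT12). With title code as a random block the count fell to 665, all among the 1556, and without replicates 5 and 6 it was 823. Of 127 called genes followed here, 41 lost their call with the block (adjusted p up to 0.153), and of those described below these were Nr1d1, Fbxl21, Angptl4, Clk4, Scnn1b, Wnk4, Aqp11, Ednrb, Ptgds, Slc3a2, Pck1, Sqle, Irs2 and Ccnd1.

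Both ZT12 sets moved the same way for all 1556 called genes. This sign agreement is in part built in, since a gene called on the mean of both sets seldom has sets that disagree, and both sets share the ZT0 arrays. On its own, the CR3 set differed from ZT0 in 635 genes (6.47%), 365 higher and 270 lower. The ZT_12 set differed from ZT0 in 2456 genes (25%), 1383 higher and 1073 lower. Both lists held 469 genes, which is 73.9% of the CR3 list and 19.1% of the ZT_12 list, and 468 of them had the same direction. Among the 1556 called genes, 468 passed in both sets (4.77% of all genes tested), 892 only in the ZT_12 set, 87 only in the CR3 set and 109 in neither alone. The direct comparison of the sets called 688 genes (7.01%), 370 (3.77%) higher and 318 (3.24%) lower in the ZT_12 set. Of the 1556 genes called between the times, 161 (10.3%) were also called between the sets. Without replicates 5 and 6, which left 1 array in the ZT_12 set, assumed to vary like the other groups, the direct comparison called 25 genes and the ZT_12 set differed from ZT0 in 379.

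Clock genes held the largest difference in each direction, Dbp upward and Arntl downward. Of 31 clock genes tested, 19 passed, 15 higher and 4 lower at ZT12 (61.3%, against 15.9% of all genes). Of the 19, 17 passed in each set on its own, 0 differed between the sets and 17 had arrays that did not overlap (10.7% of all genes). The plot of clock genes by array shows the 2 sets lying together on the far side of ZT0 for most genes.

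**Figure D1:**
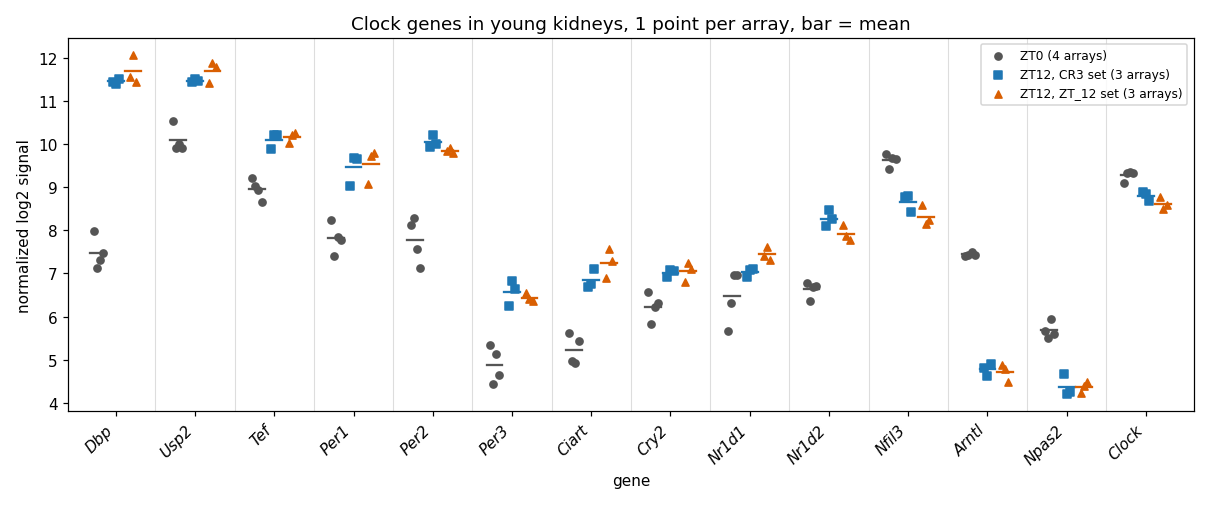
Normalized log2 signal (y axis) of 14 clock genes (x axis) in young kidneys, 1 point per array, with bars at the mean of the 4 ZT0 arrays, the 3 CR3 arrays and the 3 ZT_12 arrays. For Dbp all 6 ZT12 arrays lie between 11.39 and 12.06, above ZT0 arrays at 7.14 to 7.98, and for Arntl they lie between 4.49 and 4.91, below ZT0 arrays at 7.40 to 7.50.

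All 3 activator genes that passed were lower at lights off. Arntl, which encodes BMAL1, read 7.40, 7.43, 7.50 and 7.43 at ZT0, then 4.82, 4.61 and 4.91 in the CR3 set and 4.88, 4.79 and 4.49 in the ZT_12 set (log2 signal). Its groups were far apart, it was still detected on 4 of the 6 ZT12 arrays, and it fell by 2.69 ± 0.12 (SE), 6.47-fold (adjusted p = 1.16e-14). Its ZT12 values lay near the median of all probes (4.74), so the size is uncertain. Over the processing alternatives its difference ran from -2.72 to -1.21. Npas2, the paralog of Clock that also partners BMAL1, read 5.51 to 5.95 at ZT0 and at most 4.67 at ZT12, where 1 of 6 arrays detected it. It fell by 1.31 ± 0.11 (adjusted p = 7.16e-09), by 1.31 in each set, and the size rests on values near background. Clock fell by 0.56 ± 0.08 (adjusted p = 4.56e-05), from 9.10 to 9.34 down to 8.49 to 8.88, a smaller difference without overlap. A dimmer probe of Clock gave -0.11 ± 0.13 and did not pass (adjusted p = 0.61). The activating nuclear receptors Rora (0.02) and Rorb (-0.07) did not pass.

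The repressors were mostly higher at lights off, 7 of 9 against 1 lower. Per2, a core repressor, read 8.12, 8.28, 7.57 and 7.12 at ZT0, then 9.93, 10.20 and 9.99 in the CR3 set and 9.83, 9.91 and 9.79 in the ZT_12 set. The ZT12 arrays were tight while ZT0 spread over more than 1 log2 unit, and Per2 rose by 2.17 ± 0.19 (4.50-fold, adjusted p = 2.34e-08). Per1, which light and glucocorticoids also induce, read 7.41 to 8.23 at ZT0 and 9.03 to 9.78 at ZT12. It rose by 1.68 ± 0.25 (adjusted p = 5.19e-05), by 1.64 in the CR3 set and 1.72 in the ZT_12 set. Per3 rose by 1.62 ± 0.19 (adjusted p = 1.68e-06), from 4.43 to 5.33 at ZT0, where 2 of 4 arrays detected it, up to 6.24 to 6.82. Ciart, a repressor of the BMAL1 complex known as CHRONO, rose by 1.81 ± 0.19 (adjusted p = 5.01e-07), and its second probe rose by 2.81 ± 0.16.

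Cry2, the partner of the PER proteins, rose by 0.80 ± 0.15, from 5.83 to 6.56 at ZT0 up to 6.80 to 7.25 at ZT12 (adjusted p = 0.000518). The Rev-erb genes differed in strength. Nr1d2 (Rev-erb beta) read 6.78, 6.35, 6.69 and 6.71 at ZT0, 8.09, 8.46 and 8.26 in the CR3 set and 8.13, 7.88 and 7.76 in the ZT_12 set, and it rose by 1.46 ± 0.14 (adjusted p = 8.08e-08). Nr1d1 (Rev-erb alpha) read 5.67, 6.31, 6.96 and 6.97 at ZT0 and 6.92 to 7.62 at ZT12. Its groups overlapped, and its rise of 0.76 ± 0.26 only just passed (adjusted p = 0.0475). With title code as a block its adjusted p was 0.150, and its second probe gave 0.61 ± 0.24 (adjusted p = 0.0807). Nfil3 (E4BP4), which competes with DBP at D-boxes, was the repressor that fell, by 1.14 ± 0.13 (adjusted p = 9.05e-07), from 9.42 to 9.77 down to 8.15 to 8.79. Bhlhe40 (DEC1) did not pass (0.16, adjusted p = 0.417).

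Clock output factors followed, 7 of 10 higher and 0 lower. Dbp, the D-box activator, read 7.98, 7.14, 7.31 and 7.48 at ZT0, then 11.44, 11.39 and 11.51 in the CR3 set and 11.55, 12.06 and 11.43 in the ZT_12 set. It was the largest difference of all 9808 genes tested, 4.09 ± 0.14 or 17.0-fold (adjusted p = 2.52e-17), with 3.97 ± 0.16 in the CR3 set alone. Its relative Tef rose by 1.18 ± 0.13 (adjusted p = 1.68e-06), and by 0.38 ± 0.11 on its second probe. Usp2, a deubiquitinase driven by the clock in the kidney, rose by 1.49 ± 0.14 (adjusted p = 8.08e-08), and its 2 other probes rose by 1.36 and 1.07. Nampt, the rate-limiting enzyme of NAD salvage, rose by 0.96 ± 0.14, although its other probe did not pass (0.36 ± 0.15, adjusted p = 0.111). The Kruppel-like factors Klf13 (0.86), Klf10 (0.71, detected on 1 of 4 ZT0 arrays) and Klf9 (0.52) rose as well. Hlf was detected on 1 of 4 ZT0 and 2 of 6 ZT12 arrays, and with Klf15 (-0.09) and Gpr146 (0.28) it did not pass.

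Of 7 kinases and ligases that turn over clock proteins, each tested on its probe of highest mean, 1 passed. Fbxl21, a CRY ligase, passed (0.32 ± 0.11, adjusted p = 0.0381), near background and with overlapping arrays, and it did not pass with title code as a block (adjusted p = 0.115). On their probes of highest mean, Csnk1d (0.22), Csnk1e (0.20) and Gsk3b (0.25) did not pass. Csnk1e, a kinase of the PER proteins, rose by 0.68 ± 0.14 on its second probe (adjusted p = 0.00175). Of the 4 other probes of its relative Csnk1d, 1 rose by 0.26 ± 0.08 (adjusted p = 0.0200) and the rest lay between -0.10 and 0.12 and did not pass.

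The promoters of some of these genes carry the letters through which the loop is known to act. They are shown here to set the sequence beside the direction of each gene. Only promoters that hold the letters are shown, and no promoter sequence was available for Per2. The sequences are from RefSeq (build GRCm38.p6), 5′ to 3′ on the gene's strand, and each covers the 250 bases before the start of the transcript, with the E-box CACGTG in capitals. Per1 lies at chr11:69098699-69098948, plus strand, Ciart at chr3:95882229-95882478, minus strand, and Tef, from its downstream start, at chr15:81811164-81811413, plus strand. All 3 genes were higher at ZT12.
Per1: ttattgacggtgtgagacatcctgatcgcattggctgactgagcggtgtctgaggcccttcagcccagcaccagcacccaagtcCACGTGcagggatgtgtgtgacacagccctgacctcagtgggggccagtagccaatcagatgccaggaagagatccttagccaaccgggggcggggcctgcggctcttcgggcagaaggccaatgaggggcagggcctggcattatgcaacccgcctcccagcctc
Ciart: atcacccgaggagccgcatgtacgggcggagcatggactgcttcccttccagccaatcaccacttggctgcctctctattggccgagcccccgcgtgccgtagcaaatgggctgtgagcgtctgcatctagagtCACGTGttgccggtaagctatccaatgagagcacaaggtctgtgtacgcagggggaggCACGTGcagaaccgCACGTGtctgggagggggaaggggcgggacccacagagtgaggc
Tef: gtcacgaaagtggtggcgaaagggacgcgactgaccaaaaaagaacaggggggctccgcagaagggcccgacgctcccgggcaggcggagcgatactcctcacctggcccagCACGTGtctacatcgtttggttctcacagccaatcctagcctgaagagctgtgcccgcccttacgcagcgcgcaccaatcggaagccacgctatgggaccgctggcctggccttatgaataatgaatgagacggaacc

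Per3 (chr4:151044666-151044915, minus strand) rose with Dbp and Tef, and its sequence is shown for the D-box TTATGTAA, in capitals at 2 places.
Per3: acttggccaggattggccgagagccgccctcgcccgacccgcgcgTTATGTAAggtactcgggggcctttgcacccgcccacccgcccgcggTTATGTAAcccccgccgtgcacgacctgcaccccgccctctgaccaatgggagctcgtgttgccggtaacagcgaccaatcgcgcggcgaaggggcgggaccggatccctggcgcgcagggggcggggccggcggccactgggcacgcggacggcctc

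Nfil3 (chr13:52981040-52981289, minus strand) and Arntl fell, and for these the short Rev-erb and ROR site TAGGTCA is in capitals, in Nfil3 on the opposite strand (TGACCTA). For Arntl the 30 bases shown, at chr7:113207528-113207557 (plus strand), hold the longer form, AAAG directly before TAGGTCA, from base 27 after the start.
Nfil3: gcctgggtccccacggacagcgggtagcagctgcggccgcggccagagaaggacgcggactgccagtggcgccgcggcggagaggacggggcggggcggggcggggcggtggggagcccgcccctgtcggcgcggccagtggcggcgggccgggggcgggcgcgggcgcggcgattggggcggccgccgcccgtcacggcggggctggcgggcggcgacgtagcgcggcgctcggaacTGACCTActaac
Arntl: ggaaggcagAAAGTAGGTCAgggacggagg

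These letters were searched on both strands from 250 bases before to 50 after each start, and a gene counted if any of its windows held them. Of the 9808 genes, 7963 matched a window by symbol. CACGTG was in 13.1% of matched genes higher at ZT12, 11.4% of those lower and 11.5% of all genes tested (8.09% of all genes with a window). Among clock genes it was in 2 of 7 matched repressors, 3 of 9 output factors and 0 of 5 activators. Klf15 and Gpr146, which did not pass, were among those that held it. TTATGTAA was in 7 of 693 higher genes (1.01%), 4 of 544 lower genes (0.735%) and 66 of all tested (1.11% of all with a window). Timeless, a clock gene that did not pass, also held it. TAGGTCA, which is contained in the longer form, was in 1.44% of higher genes, 3.68% of lower genes and 2.47% of all tested (2.97% of all with a window). The longer form was in 2 of the matched genes tested and 7 of all 27025 genes with a window, and Arntl was the 1 among the called genes. The glucocorticoid response element core and the heat shock element were searched in the same windows. The core was in 4.76% of higher genes, 6.62% of lower genes and 5.59% of all tested. The heat shock element was in 0.577% of higher genes, 0.368% of lower genes and 0.515% of all tested. In the lists described below, the core was in 3 of 15 matched glucocorticoid response genes. The heat shock element was in 5 of 20 matched heat shock and cochaperone genes. The shares describe these windows and were not tested.

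Beyond the clock lists, the largest upward differences fell on a mixed group. Upp2, a uridine phosphorylase, read 4.28 to 4.47 at ZT0, where no array detected it, and 5.33 to 6.67 at ZT12, where every array did, at least 2.24-fold higher on this probe (adjusted p = 1.23e-05). Its 3 other probes rose by less, 0.68 to 0.81 on the log2 scale. Fkbp5, a cochaperone induced by the glucocorticoid receptor, read 6.88, 6.81, 6.98 and 6.74 at ZT0, 7.96, 8.59 and 7.85 in the CR3 set and 7.90, 8.51 and 8.24 in the ZT_12 set. It rose by 1.33 ± 0.14 (adjusted p = 5.14e-07). Ddx6, an RNA helicase of processing bodies, and the transcription factors Bach1 and Zbtb7a rose by 1.83, 1.37 and 1.37, but by amounts that depended on the set. Ddx6 read 6.44 to 6.92 at ZT0, 7.75 to 7.87 in the CR3 set and 9.01 to 9.31 in the ZT_12 set, steps that did not overlap. The sets of Ddx6 differed by 1.33 ± 0.13 (adjusted p = 2.84e-06), and of its other probes 1 rose by 0.96 ± 0.19 and the other did not pass (0.22 ± 0.17).

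The largest downward differences outside the clock lists included enzymes, a transporter and a receptor. Ethe1, the mitochondrial persulfide dioxygenase of sulfide disposal, read 10.54, 10.44, 10.55 and 10.54 at ZT0, 9.26, 8.85 and 9.09 in the CR3 set and 9.06, 9.11 and 9.17 in the ZT_12 set. It fell by 1.43 ± 0.08, and its adjusted p (4.84e-12) was the smallest after those of Dbp and Arntl. Ddc, which makes dopamine from L-DOPA in the proximal tubule, read 10.71 to 10.93 at ZT0 and 9.18 to 9.66 at ZT12 and fell by 1.37 ± 0.08 (adjusted p = 1.42e-11). Ggct, an enzyme of glutathione breakdown, fell by 1.54 ± 0.13 (adjusted p = 2.26e-08), and by 0.76 to 0.91 on its 3 other probes. Avpr1a, the V1a vasopressin receptor, read 8.12 to 8.47 at ZT0 and 6.95 to 7.40 at ZT12 and fell by 1.13 ± 0.10, with a second probe at -0.62 ± 0.13 (adjusted p = 0.00206). Slc7a8 (LAT2), the basolateral neutral amino acid exchanger, fell by 1.10 ± 0.12, more in the ZT_12 set (-1.32) than in the CR3 set (-0.89, adjusted p of the difference 0.0442). Dtx4 (-1.21), Rtl6 (-1.11) and Stx18 (-1.09) fell as well, each with arrays that did not overlap.

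Of 17 genes of the glucocorticoid response tested, 9 rose at lights off (8.95% of all genes rose), 2 fell (6.91%) and 6 did not pass, with a median of 0.44 against 0.02 over all genes. Tsc22d3 (GILZ), an anti-inflammatory target of the receptor, rose by 1.07 ± 0.13 (adjusted p = 2.27e-06), beside Per1 and Fkbp5. Angptl4, a secreted inhibitor of lipoprotein lipase, rose by 1.17 ± 0.36 (adjusted p = 0.0294), with ZT0 arrays spread from 6.99 to 9.35 that overlapped ZT12. It did not pass in the CR3 set alone (adjusted p = 0.232). Sgk1, the kinase that raises sodium channel activity, rose by 0.79 ± 0.16. Cdkn1a (p21) fell by 1.04 ± 0.16 and Hsd11b2, which inactivates corticosterone in the distal nephron, fell by 0.45 ± 0.10.

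Of 16 chaperones and related genes of the endoplasmic reticulum tested, 8 fell at lights off (6.91% of all genes fell), 1 rose and 7 did not pass, with a median of -0.36. Calr (calreticulin), a calcium-binding chaperone, read 8.72, 8.98, 9.16 and 9.20 at ZT0, 7.85, 7.92 and 7.78 in the CR3 set and 6.78, 7.45 and 7.51 in the ZT_12 set. The ZT_12 arrays lay below the CR3 arrays, a difference that did not pass (adjusted p = 0.110), and Calr fell by 1.47 ± 0.20 over both sets (adjusted p = 2.05e-05). Creld2 fell by 0.94 ± 0.16 and the disulfide isomerase Pdia4 by 0.83 ± 0.09. Hsp90b1 (GRP94), the HSP90 of this compartment, fell by 0.73 ± 0.10 (adjusted p = 1.72e-05), from a mean of 11.56 to 10.83. Hspa5 (BiP), the HSP70 of the compartment, only just passed (-0.43 ± 0.15, adjusted p = 0.0494), was detected on 4 of 6 ZT12 arrays and had overlapping arrays. Herpud1, a component of protein degradation at the same membrane, rose by 0.58 ± 0.11.

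Several of these promoters share the ER stress element, read by ATF6 with NF-Y, and those of Calr (chr8:84846932-84847181, minus strand), Creld2 (chr15:88819396-88819645, plus strand) and Hspa5 (chr2:34771840-34772089, plus strand) are shown with it in capitals, Calr and Creld2 carrying it on the opposite strand. The motif searched was CCAAT, then 9 bases of any letter, then CCACG, on both strands, added after the values of these genes had been seen.
Calr: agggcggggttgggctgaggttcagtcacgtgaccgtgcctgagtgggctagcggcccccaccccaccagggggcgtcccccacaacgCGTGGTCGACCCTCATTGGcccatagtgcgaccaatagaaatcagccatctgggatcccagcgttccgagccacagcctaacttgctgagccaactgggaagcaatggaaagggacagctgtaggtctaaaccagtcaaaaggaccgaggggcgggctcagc
Creld2: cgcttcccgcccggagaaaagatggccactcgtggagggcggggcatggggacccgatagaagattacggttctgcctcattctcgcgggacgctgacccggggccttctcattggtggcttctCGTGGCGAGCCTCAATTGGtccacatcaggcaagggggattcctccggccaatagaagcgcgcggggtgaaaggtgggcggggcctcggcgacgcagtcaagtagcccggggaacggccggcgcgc
Hspa5: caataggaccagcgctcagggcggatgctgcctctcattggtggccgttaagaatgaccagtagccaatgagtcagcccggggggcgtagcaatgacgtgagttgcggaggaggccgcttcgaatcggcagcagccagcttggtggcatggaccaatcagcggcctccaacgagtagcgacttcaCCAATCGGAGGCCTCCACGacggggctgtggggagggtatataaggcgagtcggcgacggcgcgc

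The element was in 7 of 15 matched chaperone genes of this list, against 12 (0.151%) of all matched genes tested and 0.137% of all genes with a window. Of the 12, 6 fell (1.10% of matched lower genes) and 1 rose, Pan2 (0.37). Those that fell were Calr, Creld2, Hsp90b1, Pdia6, Hspa5 and Ero1b. No test was made of these counts.

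Heat shock proteins and cochaperones went the same way, 7 lower and 0 higher of 22 (31.8% called). Here and in the lists below, shares called stand against 15.9% of all genes, 8.95% higher and 6.91% lower. Serpinh1 (HSP47), the collagen chaperone of the endoplasmic reticulum, fell by 0.73 ± 0.11 (adjusted p = 4.85e-05). Hspb1 (HSP27) fell by 0.65 ± 0.16, from 7.98 to 8.59 at ZT0 to 7.39 to 7.72 in the CR3 set and 7.85 to 8.08 in the ZT_12 set, and it did not pass in the ZT_12 set alone (adjusted p = 0.0878). Ahsa1, which activates the HSP90 ATPase, fell by 0.59 ± 0.10. Of the cold-inducible RNA-binding proteins and their kinases, 1 of 4 passed, Clk4 at 0.21 (adjusted p = 0.0486), whose 2 other probes did not pass (-0.35 and -0.01).

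Collagens and matrix genes were lower in 8 of 34, Serpinh1 among them, and higher in 1 (26.5% called). Col4a2, a chain of the basement membrane collagen of glomerulus and tubule, read 9.95 to 10.14 at ZT0 and 9.17 to 9.48 at ZT12 and fell by 0.70 ± 0.08 (adjusted p = 1.77e-06), by 0.69 in the CR3 set and 0.72 in the ZT_12 set. Col1a1, the fibrillar collagen of fibroblasts, fell by 0.73 ± 0.18. Of 10 markers of fibroblasts and mural cells, 4 were lower (Col1a1 itself, Acta2, Pdgfrb and Tagln), 0 were higher and 6 did not pass. Those 6 lay between -0.14 (Lum) and 0.33 (Rgs5), and the median of the list was -0.12. The mean level of all 10 was taken as a difference from the young average. It was 0.08 to 0.27 on ZT0 arrays, -0.06 to -0.02 on CR3 arrays and -0.37 to 0.18 on ZT_12 arrays. Col3a1 was not detected on any of the 10 arrays. The part of these cells in the collagen result was not tested.

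**Figure D2:**
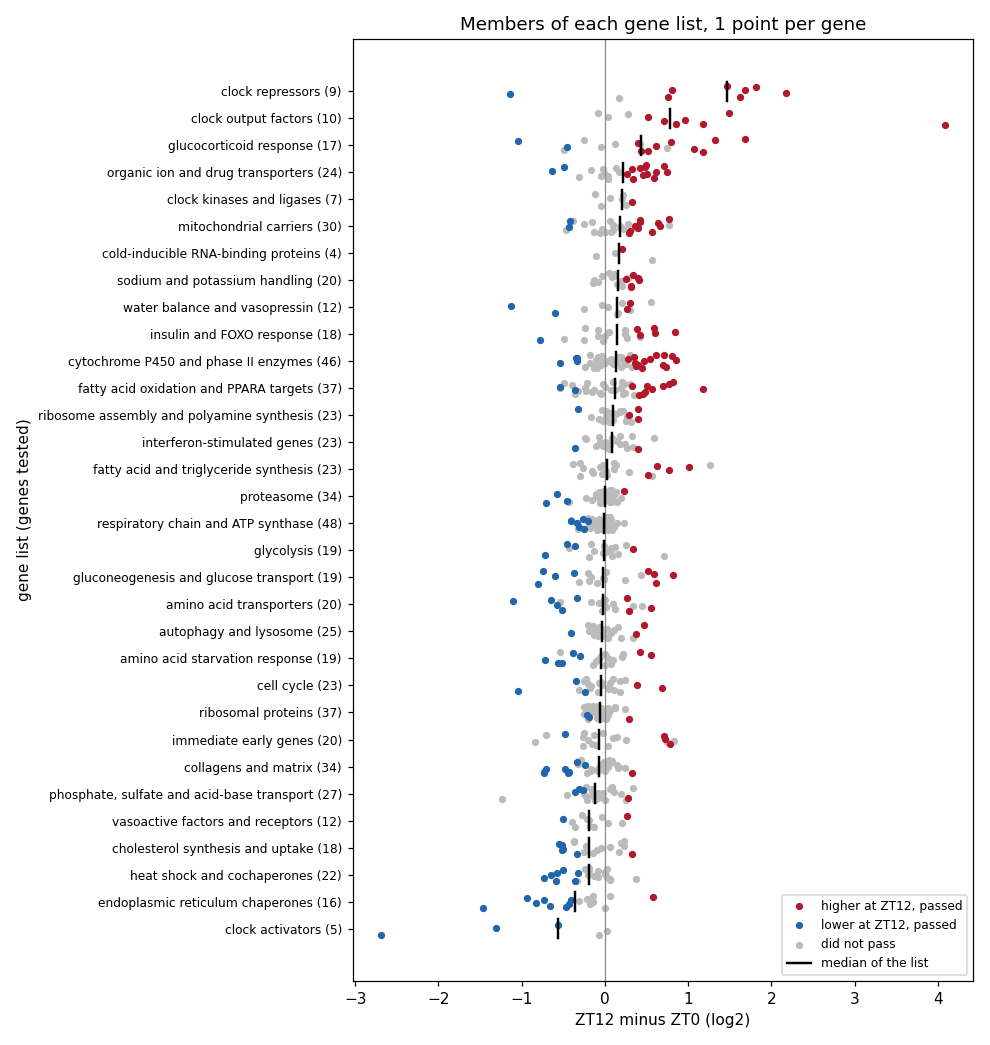
Difference ZT12 minus ZT0 in log2 (x axis) of every tested member of 32 gene lists (y axis, with the number tested), 1 point per gene, red where it passed higher, blue where it passed lower and grey where it did not pass, with a black bar at the list's median. Clock repressors (median 1.46) lie farthest right and clock activators (-0.56) farthest left, followed on the left by chaperones of the endoplasmic reticulum (-0.36).

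Transporters of organic ions and drugs rose in 12 of 24 and fell in 2 (58.3% called). Slc51a, a subunit of the basolateral bile acid and steroid exporter, read 9.71 to 9.97 at ZT0 and 10.30 to 10.74 at ZT12, and rose by 0.74 ± 0.09 (adjusted p = 3.67e-06). Slc22a4 (OCTN1), the ergothioneine transporter, rose by 0.71 ± 0.11. Slc22a12 (URAT1), which reabsorbs urate, went the other way, from 10.72 to 10.77 at ZT0 down to 9.93 to 10.24 at ZT12, and fell by 0.63 ± 0.08 (adjusted p = 9.95e-06).

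Sodium and potassium handling rose in 6 of 20 and fell in 0 (30% called), by small amounts. Among them were Scnn1g (0.40 ± 0.09) and Scnn1b (0.34 ± 0.10), subunits of the epithelial sodium channel, Wnk4 (0.41 ± 0.13), the kinase that sets the sodium chloride cotransporter, and Atp1b1 (0.32 ± 0.06), the beta subunit of the sodium pump. Without replicates 5 and 6 the count was 3, and with median scaling it was 11. Of 12 water balance genes 2 rose and 2 fell (33.3% called). Slc14a2, the urea transporter of the inner medulla, fell by 0.60 ± 0.14, but its 2 other probes did not pass (-0.36 ± 0.14 and 0.11 ± 0.12). Aqp11 rose by 0.30 ± 0.10. Of 12 vasoactive genes 2 passed (16.7%), near the share of all genes. Ednrb, the endothelin B receptor, rose by 0.27, with a second probe at 0.02 (adjusted p = 0.950), and Ptgds fell by 0.50.

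Amino acid transporters split, 3 higher and 5 lower of 20 (40% called). Slc16a10 (TAT1), the basolateral exit for aromatic amino acids, fell by 0.65 ± 0.12, as Slc7a8 did. Slc7a5 (LAT1) rose by 0.55 ± 0.12, whereas its partner Slc3a2 fell by 0.52 ± 0.16. Slc3a2 read 5.14 to 5.61 at ZT0 and 4.52 to 5.08 at ZT12, near the median of all probes (4.74). Its difference ran from -0.59 to -0.16 over the alternatives, so the size is uncertain. In the amino acid starvation response 2 rose and 5 fell of 19 (36.8% called), led by the serine synthesis enzymes Phgdh (-0.73 ± 0.16) and Psat1 (-0.57 ± 0.11). Glucose genes split evenly, 4 and 4 of 19 (42.1% called). Slc5a2 (SGLT2), the main glucose transporter of the proximal tubule, read 9.62 to 9.93 at ZT0, 9.24 to 9.43 in the CR3 set and 8.81 to 8.90 in the ZT_12 set and fell by 0.74 ± 0.12 (adjusted p = 0.000204). Its sets differed by -0.46 (adjusted p = 0.0311). Crtc2, a coactivator of gluconeogenesis, fell by 0.80 ± 0.17, to 4.42 to 5.16 at ZT12, near that median. Its difference ran from -0.96 to -0.27 over the alternatives. Pck1, the rate-limiting enzyme, rose by 0.62 ± 0.20, by 0.90 in the CR3 set and by 0.34, which did not pass, in the ZT_12 set.

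Fatty acid oxidation and PPARA targets rose in 10 of 37 and fell in 2 (32.4% called). Ppargc1a (PGC-1 alpha), the coactivator of mitochondrial genes, read 7.57 to 7.79 at ZT0, 8.02 to 8.21 in the CR3 set and 8.84 to 8.99 in the ZT_12 set. It rose by 0.82 ± 0.15, and the sets differed (adjusted p = 0.000144). The peroxisomal thiolase Acaa1b rose by 0.77 ± 0.11 and the peroxisomal thioesterase Acot3 by 0.70 ± 0.10. Lpin1, a phosphatidate phosphatase and PPARA coactivator, rose by 1.01 ± 0.15 (adjusted p = 3.39e-05) and led the list of fatty acid and triglyceride synthesis, in which 4 of 23 rose (17.4%, against 15.9% of all genes). In that list 7 genes differed between the ZT12 sets, all higher in the ZT_12 set, where adipose markers were also higher (1.11 to 1.99, against -0.54 to 0.43 in the CR3 set), and the part of fat was not tested. Of mitochondrial carriers 10 rose and 2 fell of 30 (40% called). Slc25a33, a pyrimidine nucleotide carrier, rose by 0.77 ± 0.09 (adjusted p = 2.02e-06) and Slc25a20, the carnitine-acylcarnitine carrier, by 0.57 ± 0.10, although its other probe did not pass (0.28 ± 0.19).

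Cytochrome P450 and phase II enzymes rose in 14 of 46 and fell in 4 (39.1% called). Cyp2a5, a coumarin hydroxylase under clock control in liver, rose by 0.85 ± 0.11 (adjusted p = 8.49e-06), with ZT0 arrays at 11.30 to 11.59 and ZT12 arrays at 12.15 to 12.64, and of its 3 other probes 2 rose and 1 did not pass (0.36 ± 0.18). Cyp2e1 rose by 0.80 ± 0.18, unevenly by set (0.48 and 1.13, adjusted p of the difference 0.0425), and is also on the list of adipose markers, which were higher in the ZT_12 set. Cyp2d9 rose by 0.74 ± 0.18. Cholesterol synthesis and uptake fell in 5 of 18 and rose in 1 (33.3% called), and without replicates 5 and 6, 2 fell and 0 rose. Among the lower genes were Dhcr7 (-0.55 ± 0.13), the last enzyme of the pathway, and Sqle (-0.52 ± 0.16), squalene epoxidase. In glycolysis 3 of 19 fell and 1 rose (21.1% called) under quantile normalization, whereas 2 fell and 4 rose under median scaling. Pfkp, the platelet phosphofructokinase, fell by 0.72 ± 0.10 (adjusted p = 2.48e-05).

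Housekeeping machinery showed few calls (8.11% to 12.5% of each list), and their direction depended on the processing. Of 48 respiratory chain and ATP synthase genes, 0 rose and 6 fell under quantile normalization, 14 rose and 0 fell under median scaling, and 0 passed without replicates 5 and 6. Of 37 ribosomal proteins 1 rose and 2 fell, against 7 and 0 under median scaling. In the proteasome 1 rose and 3 fell of 34, against 6 and 2, and Psmd11 fell by 0.71 ± 0.12 although its second probe did not pass (-0.30 ± 0.11, adjusted p = 0.0651).

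The next lists are to be read against the 15.9% of all genes that passed. Insulin and FOXO response genes rose in 5 of 18 and fell in 1, and without replicates 5 and 6 only 1 rose. Irs2, the insulin receptor substrate, rose by 0.84 ± 0.24. Immediate early genes rose in 3 of 20 and fell in 1 (20% called), with Ier3 at 0.78 ± 0.12, Ccn2 at 0.72 ± 0.17 and Klf6 at 0.70 ± 0.08. In the cell cycle list (21.7% called) 2 of 23 rose, Ccnd2 (0.68) and Ccnd1 (0.39, with 2 other probes that did not pass), and 3 fell, Cdkn1a among them. Ribosome assembly (3 higher and 1 lower of 23, 17.4%), phosphate and acid-base transport (1 and 3 of 27, 14.8%), autophagy (2 and 1 of 25, 12%) and interferon-stimulated genes (1 and 1 of 23, 8.7%) were near or under that share.

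Genes that separated the ZT12 sets formed recognizable groups. Adipoq (adiponectin), a fat cell hormone, read 7.92, 7.66, 7.71 and 6.48 at ZT0, 6.66, 7.69 and 7.44 in the CR3 set and 9.27, 9.81 and 9.54 in the ZT_12 set. The ZT_12 arrays were above all others, and the sets differed by 2.28 ± 0.64 (adjusted p = 0.0338). Of 9 adipose markers tested, 6 differed between the sets, all higher in the ZT_12 set, among them Lep (leptin), Car3, Cidec and Plin4. The mean level of the 9 was taken as a difference from the young average. It was -0.84 to 0.27 on ZT0 arrays, -0.54 to 0.43 on CR3 arrays and 1.11 to 1.99 on ZT_12 arrays. Fabp4, Cfd and Retn were not detected on any of the 10 arrays. Thrsp, a lipogenic gene of fat and liver, was higher by 2.73 ± 0.59.

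Secreted plasma proteins also differed. Hamp2, a hepcidin, read 5.45, 9.17 and 9.17 in the ZT_12 set, 5.38, 4.78 and 4.81 in the CR3 set and 4.78 to 7.43 at ZT0. Replicates 5 and 6 were thus high and replicate 4 was not, although the set difference passed (2.94 ± 0.88, adjusted p = 0.0439). Orm1 (2.79), Itih4 (2.66) and Ambp (2.40), acute phase or plasma proteins of the liver, differed between the sets in the same direction. In a list of 10 plasma proteins chosen after their values were seen, the level was 0.04 in replicate 4, 1.90 and 1.99 in replicates 5 and 6 and -0.95 to -0.84 in the CR3 set. Arrays of other young times reached similar values for Hamp2 (up to 9.12 at ZT8) and Ambp (up to 9.23 at ZT4). In replicates 5 and 6 Ambp read 8.80 and 9.13.

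**Figure D3:**
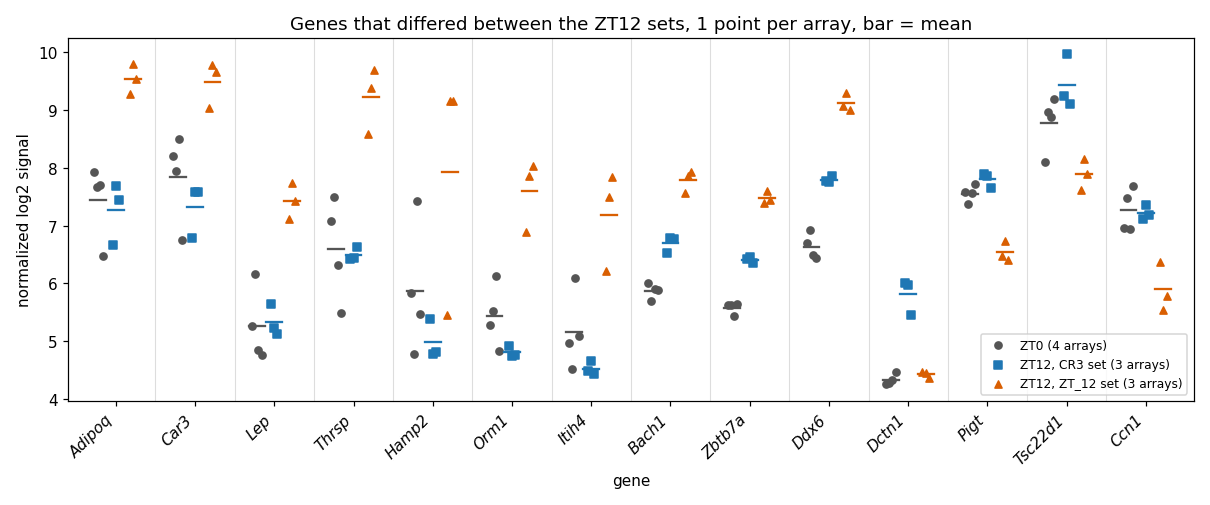
Normalized log2 signal (y axis) of 14 genes that differed between the ZT12 sets (x axis), 1 point per array, with bars at the mean of the ZT0, CR3 and ZT_12 arrays. For Adipoq, Car3, Lep and Thrsp the ZT_12 arrays lie above all others, for Hamp2 replicates 5 and 6 do (9.17 and 9.17), and for Dctn1 the CR3 arrays do (5.46 to 6.01).

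In the other direction, Dctn1, the large dynactin subunit, was detected on all 3 CR3 arrays (6.01, 5.97 and 5.46). No ZT0 or ZT_12 array detected it, and it was at least 2.19-fold higher in the CR3 set (adjusted p = 0.000522). At the other young times its mean was 6.82 at ZT4, 6.24 at ZT8, 4.36 at ZT16 and 4.37 at ZT20. Tsc22d1 (-1.55 ± 0.26), Ccn1 (-1.32 ± 0.27), Pigt (-1.26 ± 0.18) and Hsd17b11 (-1.12 ± 0.23) were lower in the ZT_12 set. Of these only Hsd17b11 also passed between the times (-0.76 ± 0.25, adjusted p = 0.0429), and it did not in the CR3 set alone (adjusted p = 0.682). Proximal tubule markers had a mean level of -0.01 to 0.04 on ZT0 arrays, 0.01 to 0.09 in the CR3 set and -0.16 to -0.06 in the ZT_12 set. Of the 12 tested, only 1, Slc5a2, differed between the sets. Adrenal markers were near their average on 9 arrays (-0.14 to 0.03) and at 1.11 on replicate 5. In the CR3 set alone, the differences from ZT0 were 3.97 for Dbp, -2.66 for Arntl and 2.27 for Per2, which are among the largest called. Of the 1556 called genes, 892 passed only in the ZT_12 set. The part of fat, adrenal or blood proteins in the comparison of times was not tested.

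Lights on and lights off were not always the extremes of the day. Among the 878 genes higher at ZT12, that time had the highest of the 6 young means in 579, ZT0 the lowest in 607, and both held in 366. Among the 678 lower genes, ZT12 was the lowest in 407, ZT0 the highest in 495 and both in 276. These counts are in part built in, since the genes were chosen for their difference between ZT12 and ZT0. Dbp was higher at ZT8 (12.30) than at ZT12 (11.57), and Ciart and Nr1d2 had their highest mean at ZT8 as well. Nr1d1 stood at 8.53 and 8.58 at ZT4 and ZT8 and was already down to 7.24 at ZT12, so this contrast caught its falling side. Per1 (9.49), Per2 (9.94) and Fkbp5 (8.18) had their highest means at ZT12, and Arntl (4.75), Ethe1 (9.09) and Slc7a8 (9.37) their lowest. Nfil3 was lower at ZT4 (7.51) than at ZT12 (8.49). Calr was highest at ZT0 (9.01) and lowest at ZT12 (7.55).

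**Figure D4:**
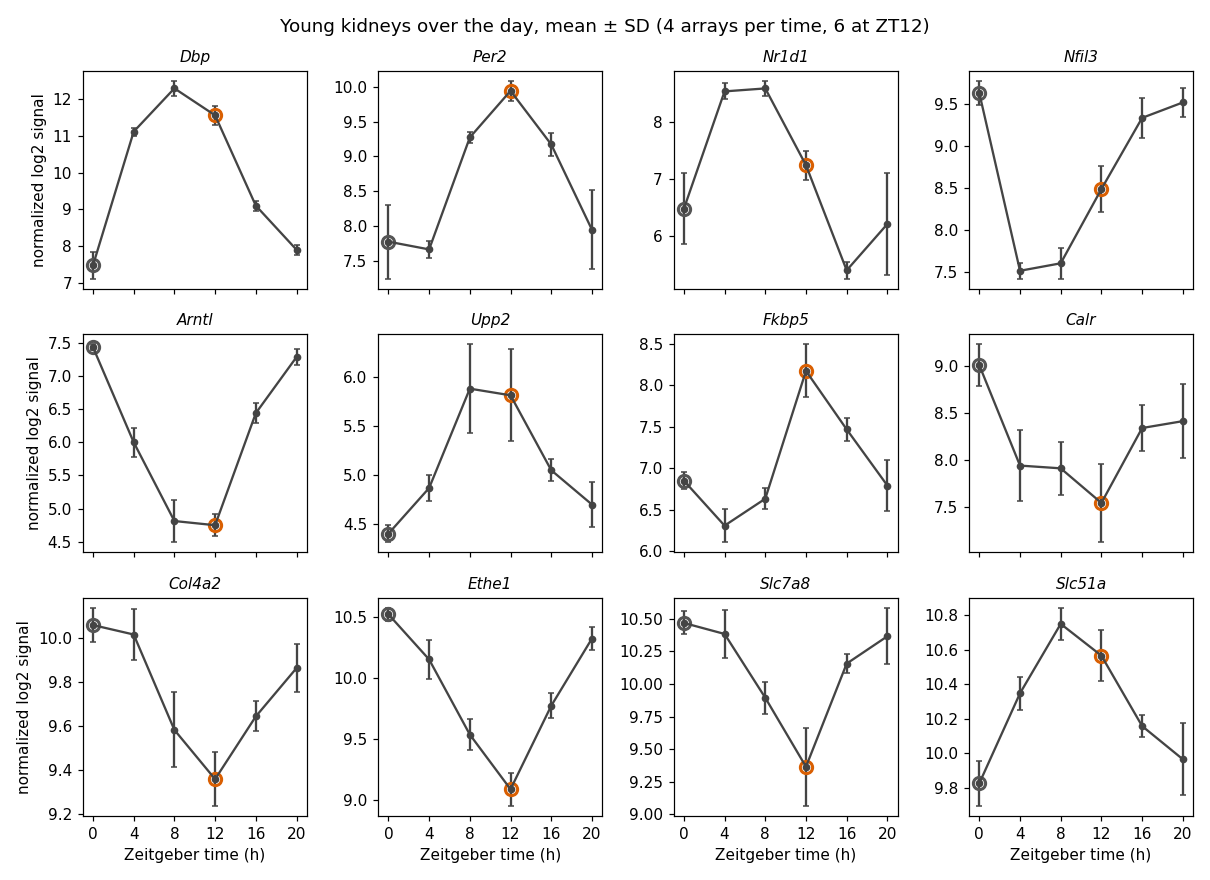
Normalized log2 signal (y axis, mean ± SD) of 12 genes over Zeitgeber time in hours (x axis) in young kidneys, with 4 arrays per time and 6 at ZT12, and circles at ZT0 and ZT12. Per2, Fkbp5, Ethe1 and Slc7a8 reach an extreme at ZT12, whereas Dbp (12.30) and Nr1d1 (8.58) are highest at ZT8.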

How the data were processed

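Total RNA was hybridised to Illumina MouseRef-8 v2.0 arrays. The authors extracted the deposited signal intensity and detection p-value of each probe with GenomeStudio, version not given in the sources used here. The deposited signals were linear and not normalized between arrays (medians 98.1 to 117.9). The authors also deposited a processed table on the same linear intensity scale, with array medians of 106.8 to 106.9, used only as an alternative. Per the study's methods, log2 values were brought to a common median.

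Signals of all 48 arrays were corrected by normexp with an offset of 16, quantile-normalized and log2-transformed (neqc, limma 3.58.1, R 4.3.3). A single gene symbol was given for 23978 of the 25697 probes and none for 1719. Probes detected (p under 0.05) on at least 3 of the 10 arrays were kept, and each gene took the probe with the highest mean over those arrays, which gave 9808 genes. Means of 6 times were fitted by limma to the 26 young arrays, with 7 means for the sets, and p-values were adjusted by Benjamini-Hochberg over all genes at 0.05. Values after ± are SE unless marked SD. Where a group had no array that detected a gene, its fold is a lower bound, set against the dimmest detected probe per array. Fits were tested on simulated data.

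Members and gene lists were chosen with earlier results of these data known. Named genes were all clock genes, the 12 largest differences each way with non-overlapping arrays, up to 4 called members of each list, the 5 largest set differences each way, and markers that moved with a set. Sgk1, Pan2, Ero1b, Pdia6, Hspa5, Herpud1, Hsd11b2, Acta2, Pdgfrb and Tagln were named after their values were seen. Nephritic arrays were not compared here.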

Additional observations from a re-analysis of the deposited data

Results flagged for a closer look

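The difference between the ZT_12 and CR3 sets passed the limma test for 31 of the genes followed here. Values are log2, ZT_12 minus CR3. Fat cell and lipid genes were higher in the ZT_12 set: Adipoq by 2.28, Lep by 2.11, Cidec by 2.04, Plin4 by 1.81, Car3 by 2.17, Thrsp by 2.73, Lpin2 by 0.87, Pnpla2 by 0.54 and Cyp2e1 by 0.65. Plasma proteins were higher as well, Hamp2 by 2.94, Orm1 by 2.79, Itih4 by 2.66 and Ambp by 2.40. Also higher were Ddx6 (1.33), Bach1 (1.09), Zbtb7a (1.07), Ppargc1a (0.79), Wipi2 (0.43) and Slco3a1 (0.40). Lower in the ZT_12 set were Tsc22d1 (-1.55), Dctn1 (-1.39), Ccn1 (-1.32), Pigt (-1.26), Hsd17b11 (-1.12), Ctsa (-0.52), Atp5pb (-0.51), Slc5a2 (-0.46), Slc7a8 (-0.43), Ldha (-0.38), Pfkp (-0.37) and Btrc (-0.30), the ligase of the PER proteins.

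In 22 of 314 groups tested, 1 array stood far from the rest of its time by Dixon's test, which by chance picks about 1 in 20 groups. Values are log2 signals. At ZT0, replicate 1 was high for Usp2 (10.5), Scnn1b (9.35) and Lpin2 (6.53) and low for Clock (9.10) and Psmb7 (11.05). ZT0 replicate 2 was high for Ldha (12.1) and Hlf (4.75) and low for Vdr (10.8). ZT0 replicate 3 was low for Zbtb7a (5.43). ZT0 replicate 4 was low for Ccnd1 (11.3), Cidea (5.38) and Plin4 (5.60). At ZT12, replicate 2 was high for Slc25a20 (11.1) and Timeless (6.08) and low for Klf10 (4.74), and replicate 3 was low for Eif4a1 (11.5). Replicate 4 was low for Ccn2 (10.9). Replicate 5 was high for Dbp (12.1), Cyp2a5 (12.6) and Slc7a5 (7.66) and low for Ggct (6.85), and replicate 6 was high for Csnk1d (8.06).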

How the results depend on the processing

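Of 127 called genes followed here, 50 passed under every limma alternative that gave a value, 14 of the 19 called clock genes among them, and none passed the Mann-Whitney alternative given below. The other clock genes were Nr1d1, Fbxl21, Clock, Klf9 and Nampt. The main counts were 1556 genes between the times (878 higher, 678 lower), 688 between the sets, 635 for the CR3 set and 2456 for the ZT_12 set. Median scaling gave 398 lower genes and 1085 for the CR3 set, and the filter and scaling of the study's methods gave 368 and 986. Both started from the log2 of the deposited signals, without the background correction. Under both, Rpl5 turned from -0.20 to 0.00789, which no longer passed. A fit of the 10 arrays alone called 923 (521 higher, 402 lower) and 435 between the sets. A fit of all 48 arrays called 340 (192 higher, 148 lower), 20 between the sets, 73 for CR3 and 620 for ZT_12. Title code as a random block gave 665 (395 higher, 270 lower). The CR3 set alone gave 635 (365 higher, 270 lower) and the ZT_12 set alone 2456 (1383 higher, 1073 lower). The exact two-sided Mann-Whitney test called 0 genes (0 higher, 0 lower), with 2112 at an unadjusted p under 0.05. Its smallest p is 0.00952, so the smallest adjusted p was 0.0927. Without each array in turn the counts ran from 933 to 1724 (536 to 991 higher, 397 to 733 lower), from 171 to 923 between the sets, from 308 to 668 for CR3 and from 1549 to 2543 for ZT_12. Leaving out ZT0 replicate 4 gave 933, and leaving out ZT0 replicate 3 gave 438 lower genes. Between the sets, leaving out ZT12 replicate 1, 2, 3, 5 or 6 gave 277, 255, 380, 171 and 253. For CR3, leaving out replicate 1, 2 or 3 gave 406, 308 and 364, and for ZT_12, leaving out replicate 5 gave 1549. Without replicates 5 and 6 together, an alternative chosen after seeing the data, 823 genes passed (478 higher, 345 lower), 761 of them among the 1556, with 25 between the sets and 379 for ZT_12. The cause of these changes was not tested. The other alternatives (the authors' table, normalization of young arrays alone, an offset of 50, other detection filters, a variance trend with robust fit) kept every count within 1.5 times. No paired analysis was possible because the labels give no numbers or animals that link ZT0 with ZT12 arrays. The number of arrays limits the precision, and genes near background, such as Npas2 and Arntl at ZT12, have uncertain folds.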
